A study of Mus with 4 samples.

Results

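Tumors grown from Renca cells with a hairpin against Nrf3 in mice fed a high-fat diet (HFD) were compared, gene by gene, with tumors of the control hairpin in mice on the same diet. Each side is 1 array, labelled shNrf3-HFD and shCtrl-HFD. The comparison covers every named gene whose mean over the series' 4 arrays was 5.73 or more, the median over all probe sets, and 10021 of 19505 named genes met that rule. Values are log2 RMA values, an Affymetrix summary of the probes of a gene in which a difference of 1 is 2-fold.

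Renca is a mouse renal adenocarcinoma line. In the group shCtrl-HFD the cells carried the control hairpin shCtrl, and in shNrf3-HFD the hairpin shNrf3, whose target is Nfe2l3. The hosts were male BALB/cCrSlc mice, bought at 4 to 6 weeks of age and given HFD for 17 weeks, with the cells placed under the skin of the flank and the tumors taken out after 2 weeks. The groups shCtrl-NC and shNrf3-NC had normal chow (NC) and were otherwise handled alike, and they are used here to show on which side a gene stood apart. Whether 1 tumor or a pool went onto an array is not stated, and the labels name neither the promoter of the hairpins nor the number of clones. BALB/c is an immunocompetent strain. Each RNA sample (100 ng) came from whole tumor tissue, so host cells and tumor cells were measured together. With 1 array a side no difference below has a replicate check, and no test was run.

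NRF3 is a transcription factor of the cap'n'collar family, which pairs with small MAF proteins on antioxidant response elements, as its relatives NRF1 and NRF2 do. It is anchored in the endoplasmic reticulum and released by proteolysis, and in cancer cells it is known for its part in proteasome and lipid metabolism. A tumor under the skin also holds macrophages, lymphocytes, fibroblasts and vessels, and can take along fat, muscle or epidermis of the site, each of which has genes of its own on the array.

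The knocked-down gene itself went against its HFD label. In NC Nfe2l3 read 6.22 with the control hairpin and 5.56 with shNrf3, and in HFD 5.77 and 6.05. The array labelled shNrf3-HFD was thus higher than its control by 0.28, against a difference of -0.66 in NC. These readings are low for the array, where 95% of the negative control rows lay under 8.97 to 9.35. In what follows, "higher" and "lower" mean higher or lower on the array labelled shNrf3-HFD than on that labelled shCtrl-HFD, and every direction rests on those labels. Of the 10 genes of the family, its small MAF partners and regulators on the array, 3 were lower by 1.5-fold or more and 0 higher, where 5.19% of all 19505 genes were higher and 11.1% lower. In these 1.5-fold counts no difference is read where both HFD arrays lay below the median of the negative control rows. Of the 10 genes, 9 met the level rule. Without that exception, 9.12% of the 10021 genes above the level rule were higher and 20.8% lower. The 3 lower genes were Nfe2l1, the gene of NRF1 (13.89 to 13.16, shCtrl-HFD to shNrf3-HFD), the repressor gene Bach2 (6.74 to 6.06) and the small MAF gene Maff (7.74 to 7.10). The median of the 10, -0.21, turned to 0.0050 when arrays were centred on the genes above the level rule, and 0 of the 3 then passed 1.5-fold.

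More genes were lower than higher. At 2-fold or more, 256 genes were higher, 2.55% of those tested, and 714 were lower, 7.13%. At 1.5-fold the counts were 914 (9.12%) and 2082 (20.8%), and 7025 genes (70.1%) lay within 1.5-fold. The excess of lower genes depended on how the arrays were scaled. Of the genes past 2-fold 26.4% were higher as deposited, 37.9% after cyclic loess, 36.5% after quantile normalization and 55.7% when each array was centred on its median over the genes above the level rule, a scaling chosen after the values were seen. The median difference was -0.14 over these genes and -0.0034 over all 19505, and directions near 0 are not read below. Without the level rule the shares past 2-fold were 5.17% higher and 5.23% lower. In NC, of the same 10021 genes 13.3% passed 2-fold upward and 4.52% downward.

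Differences past 4-fold were 10 higher and 56 lower, and past 8-fold 3 higher and 10 lower. The 3 were Mid1, Cxcl9 and Ipw. The 10 were Mup22, Mup2, Mup19, Mup9, Krt10, Crabp1, C1qtnf3, Prdm1, Krt77 and Lum. Ipw, Krt10, C1qtnf3 and Krt77 read below the median of the negative control rows on 1 of the arrays, so their differences are given below as bounds, with that reading set to the median (5.36 on shCtrl-HFD and 5.39 on shNrf3-HFD).

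The control rows of the array, named negative, positive and background by their row identifiers, were compared in the same way. What their probes match is unknown here, and readings among the negative and positive rows reached 19.93. Of the 2152 negative control rows at the same level or above, 21.1% lay 2-fold or more above 0 and 14.7% below, with an SD of 1.38 against 0.60 for genes. Of 1123 positive control rows 4.19% were higher and 9.08% lower. The 23 background rows had none past 2-fold in either direction. How many probes stand behind each kind of row is unknown here, so the shares cannot be carried over to genes one by one. Past 4-fold lay 0.0998% of genes higher and 0.559% lower, against 0.712% and 0.980% of the positive control rows and 6.32% and 4.83% of the negative ones. Past 8-fold lay 0.0299% of genes higher and 0.0998% lower. The positive control rows had 0.178% and 0.356% there, and the negative ones 2.09% and 1.86%. Over these levels the share of genes past 2-fold, 4-fold and 8-fold was thus below that of the positive and the negative control rows, both ways. Single genes, at 2-fold or at larger sizes, are not distinguished from such scatter here.

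**Figure D1:**
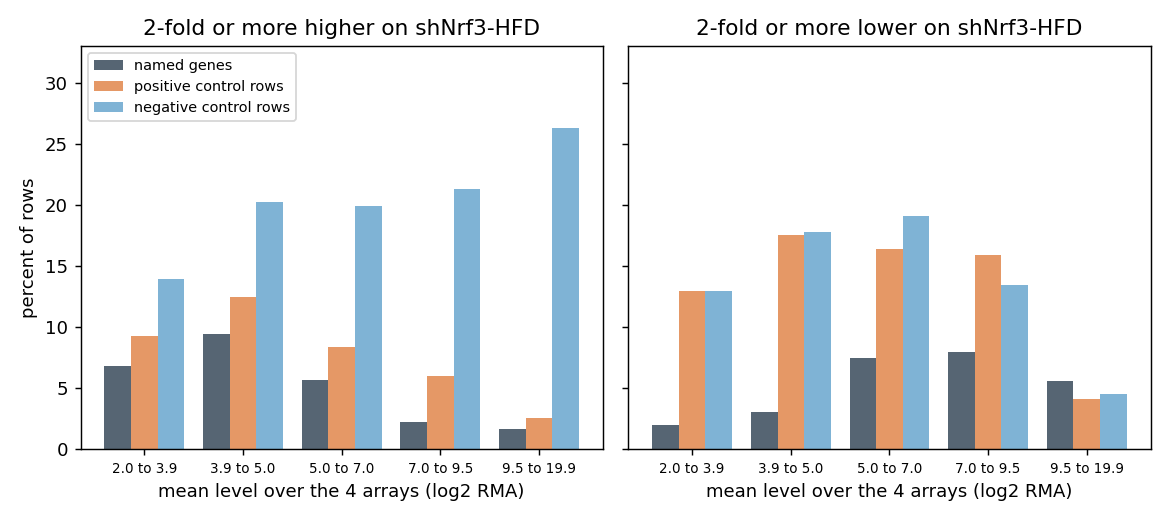
Percent of named genes, positive control rows and negative control rows that were 2-fold or more higher (left) or lower (right) on the array labelled shNrf3-HFD, in 5 bins of 3901 genes by mean log2 RMA level over the 4 arrays. Among genes the share lower was largest in the fourth bin, and in the top bin 1.67% were higher and 5.56% lower, against 26.3% and 4.57% of the negative and 2.58% and 4.09% of the positive control rows.

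The direction also followed the level. In the lowest bin of the plot by level 6.84% of genes were higher and 2.03% lower, and in the top bin 1.67% and 5.56%. In that top bin the share of genes lower was above that of the negative (4.57%) and positive control rows (4.09%), unlike the share higher. Over the 4313 genes above that 95% limit on both HFD arrays, 64 (1.48%) were higher and 183 (4.24%) lower.

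**Figure D2:**
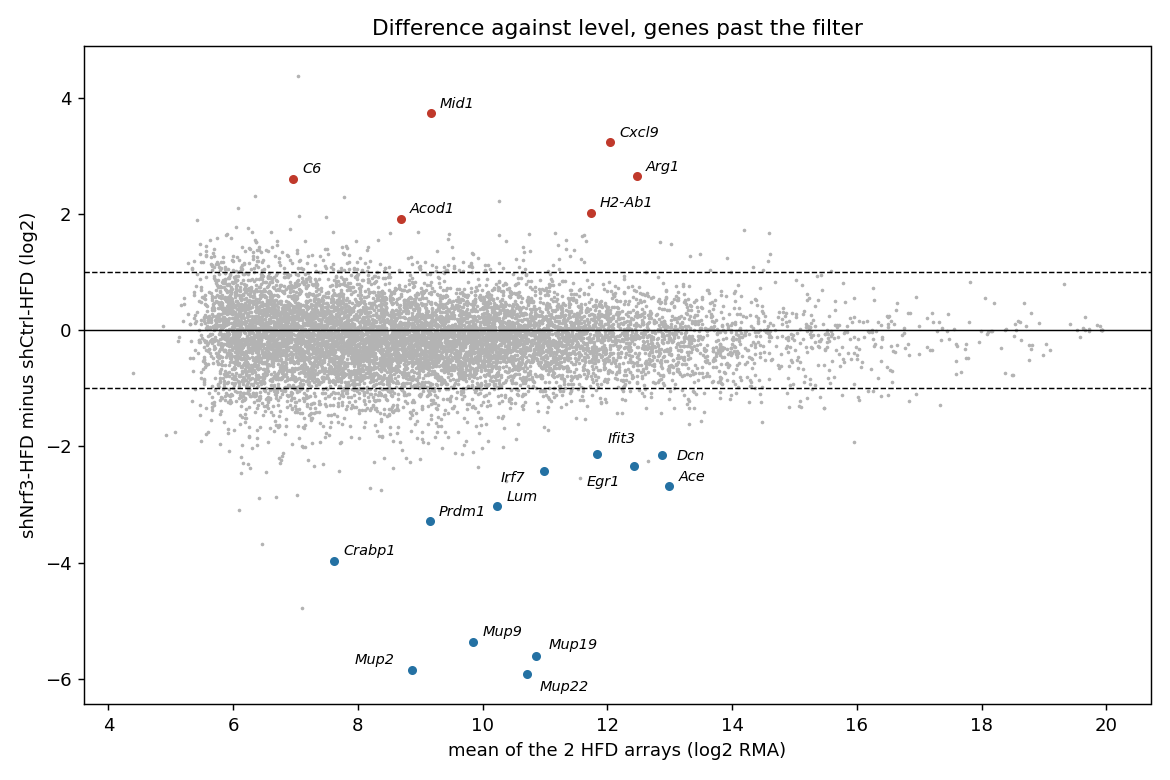
Difference between the arrays labelled shNrf3-HFD and shCtrl-HFD (log2) against their mean (log2 RMA) for the 10021 genes, with dashed lines at 2-fold and 18 leading genes marked. Mid1 and Cxcl9 lie highest among genes measured on both arrays and the 4 Mup genes lowest, at -5.36 to -5.93.

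Leading the higher genes was Mid1, which encodes a microtubule-associated ubiquitin ligase. It read 7.19, 9.87, 7.30 and 11.04 on the arrays in the order NC then HFD, each with shCtrl before shNrf3, which is kept for all sets of 4 values below. Both arrays labelled shNrf3 were above both labelled shCtrl, and in HFD the difference was 3.74 (13.4-fold). The chemokine gene Cxcl9 read 10.47, 14.73, 10.43 and 13.66 (9.43-fold higher in HFD), and the arginase gene Arg1 13.08, 14.59, 11.15 and 13.80 (6.29-fold). For Arg1 the array labelled shCtrl-HFD was the lowest of the 4, so that its HFD difference of 2.65 exceeded the NC difference of 1.51.

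The neurotrophin gene Bdnf peaked on the array labelled shNrf3-HFD (8.92, against 6.62 on shCtrl-HFD), a difference of 2.30. Sema6a, a semaphorin of axon guidance, read 7.15, 7.08, 6.51 and 8.46, with a difference of 1.95 and close values on the NC arrays. Cd180, a receptor of B cells and myeloid cells, read 7.79, 8.73, 8.12 and 9.81. The complement gene C6 (2.61), Acod1, which makes itaconate (1.92), Ch25h, which makes an oxysterol (1.75), and the inhibitory lectin gene Clec12a (1.69) were also among the 15 highest, together with Ttll9 and Bend3 (1.69 each). Those of this set above the 95% limit of the negative control rows on both arrays were Cxcl9, Arg1, H2-DMb2, H2-Ab1 and Mmp12, which encodes macrophage metalloelastase. At that level Slc15a3, a peptide transporter of lysosomes (1.67), was also among the largest. With a reading below the control median on shCtrl-HFD, the non-coding RNA Ipw was higher by 3.87 or more, Mycbpap by 1.77 or more, Zfp597 by 1.76 or more, Igfl3 by 1.57 or more and Cd200r2 by 1.401 or more.

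**Figure D3:**
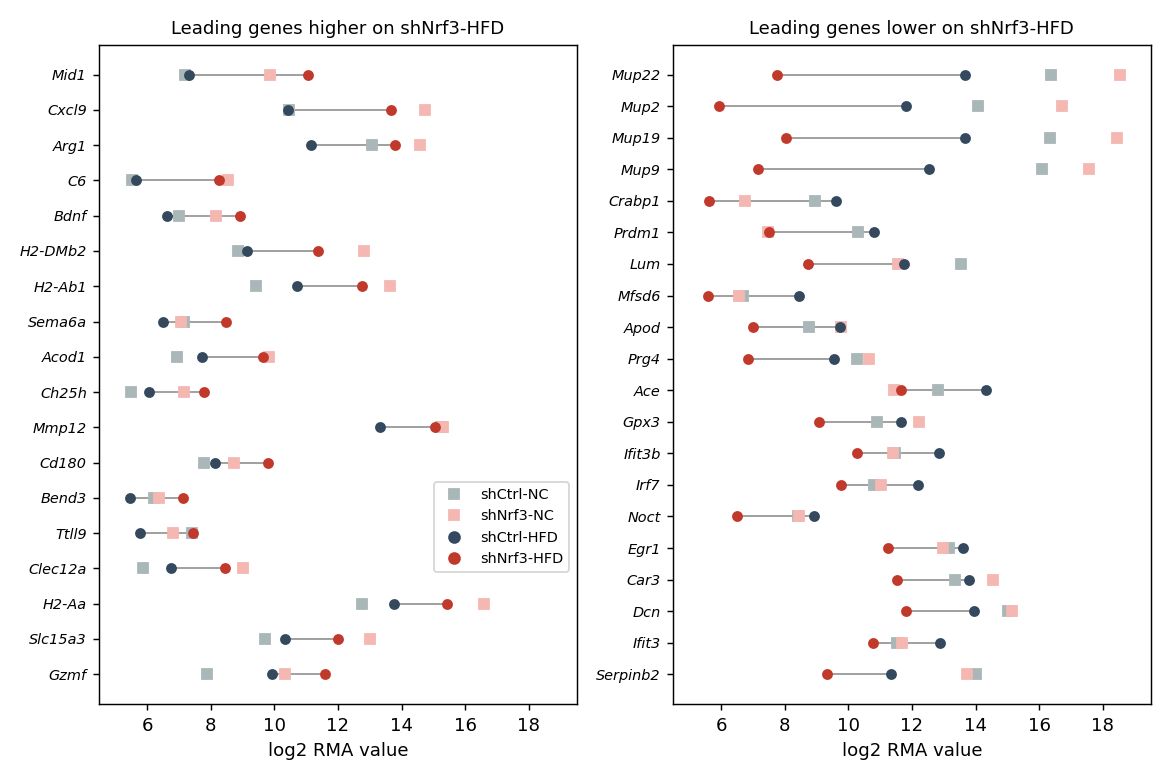
Log2 RMA values on the 4 arrays (squares NC, circles HFD; the line joins the HFD pair) of the leading genes higher (left) and lower (right) on the array labelled shNrf3-HFD. Mid1 and Cxcl9 are high on both arrays labelled shNrf3, Prdm1 is low on both, and Sema6a and Irf7 are separated in HFD with close values in NC.

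On the lower side, Crabp1, a carrier of retinoic acid in the cytoplasm, read 8.96, 6.76, 9.60 and 5.64, 15.6-fold lower in HFD. Prdm1, the gene of the repressor BLIMP1, read 10.31, 7.49, 10.80 and 7.51, so that both arrays labelled shNrf3 were low to a like extent. Ace, the angiotensin-converting enzyme gene, read 12.83, 11.44, 14.34 and 11.65, with its peak on shCtrl-HFD. The lubricin gene Prg4 read 10.27, 10.65, 9.55 and 6.84, and Apod, an apolipoprotein gene, 8.78, 9.77, 9.75 and 6.99. In both of these the NC arrays lay near shCtrl-HFD and the array labelled shNrf3-HFD stood apart. The extracellular glutathione peroxidase gene Gpx3 (-2.59), the transporter-like gene Mfsd6 (-2.84) and Noct, whose product nocturnin acts on NADP(H) (-2.42), completed the 15 lowest with Lum and the interferon and Mup genes described below. C1qtnf3 was lower by a bound (-2.91 or lower), as were the growth factor gene Pdgfb (-2.47 or lower) and the receptor phosphatase gene Ptprm (-2.36 or lower).

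Type I interferon genes, which cells switch on in response to interferon-alpha and -beta, were lower. Of 28 measured genes 18 were lower by 1.5-fold or more and 0 higher, with a median of -0.89. The median over all 19505 genes was -0.0034. In these counts, as in those of every list below, no difference is read where both HFD arrays lie below the control median, and a reading under it on 1 array is set to it. Of all 19505 genes 5.19% were higher and 11.1% lower by this count. Of the 10021 above the level rule, with no reading left out or set, 9.12% were higher and 20.8% lower. Of the type I interferon genes 12 were 2-fold or more lower. Irf7, the master factor of the interferon response, read 10.80, 11.04, 12.20 and 9.78, 5.38-fold lower in HFD. Ifit3, a sensor-associated antiviral gene, read 11.53, 11.68, 12.89 and 10.77, and its near-identical neighbour Ifit3b 11.45, 11.40, 12.84 and 10.29. The 2'-5'-oligoadenylate synthetase gene Oas2 read 7.41, 7.27, 8.36 and 6.44. In all of these the NC arrays lay close together, between a high shCtrl-HFD and a low shNrf3-HFD.

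The antiviral GTPase gene Mx2 went the same way (8.57, 8.07, 9.30 and 7.47), and so did Oas1a (-1.74), Ifit1 (-1.65), Oas3 (-1.64), Oasl2 (-1.56) and Cmpk2 (-1.52), named after their values were seen. Ifit2 was the one member above 0, at 0.37. The array labelled shCtrl-HFD was the highest of the 4 for 22 of the 28 genes, where it was highest for 36.7% of all genes above the level rule. The array labelled shNrf3-HFD was the lowest for 11 of them and shCtrl-NC for 14. In NC the list's median difference was 0.36. The HFD median stayed below 0 under the other scalings (-0.93 to -0.67). In RNA of whole tumors, fewer cells of a type and less RNA per cell cannot be told apart, here and in every list below.

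Interferon-gamma and antigen presentation genes went the other way. Among 36 measured genes 16 were higher by at least 1.5-fold and 1 was lower. The median was 0.51, and the list stayed above 0 under each scaling (0.46 to 0.72). Beside the chemokine gene Cxcl9, described above, class II genes were among the largest. H2-DMb2, which helps to load peptides on class II molecules, read 8.87, 12.83, 9.15 and 11.38, and H2-Ab1, a class II chain, 9.42, 13.63, 10.73 and 12.75. H2-Aa (1.68), H2-Eb1 (1.65), H2-DMb1 (1.62) and the class II transactivator gene Ciita (1.27) were higher too. In the H2 family the copies are close in sequence, so single probe sets are uncertain.

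The class I branch of the same list differed less in HFD. The proteasome genes Psmb9 and Psmb10 (0.15 each) and Psmb8 (0.49), the class I chain H2-K1 (0.23) and beta-2-microglobulin, B2m (0.22), lay within 1.5-fold, while the peptide transporter gene Tap1 was higher by 0.74. The GTPase genes Iigp1 (1.64), Igtp (1.47) and Gbp2 (1.03) and the checkpoint ligand gene Cd274 (1.33) were among the higher. Of the chemokines that bind CXCR3, Cxcl9 was higher by 3.24, whereas Cxcl11 differed by 0.08 and Cxcl10 by less than 0.01. Ido1, which breaks down tryptophan, was the one gene 1.5-fold lower (-0.63). Ifng itself read 4.71, 5.49, 4.53 and 6.29, below the control median on shCtrl-HFD, and was higher by 0.93 or more. Apart from Cxcl9 and the leading class II genes, the members given were named after their values were seen. Macrophage markers, described next, were higher as well, and their part in these differences was not tested.

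**Figure D4:**
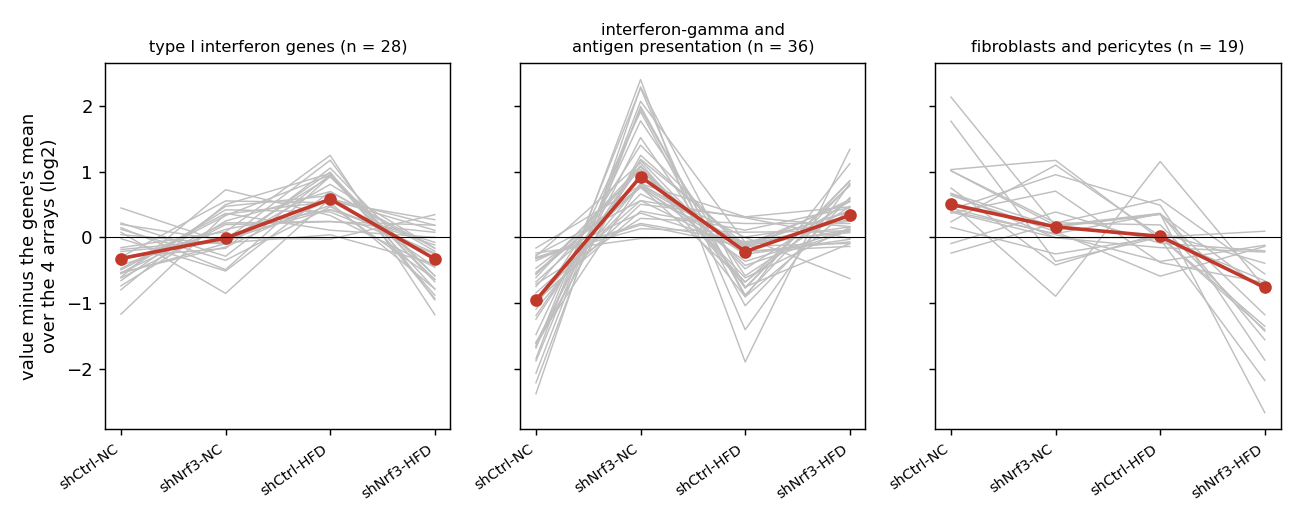
Each grey line is a gene's log2 value on the 4 arrays minus its mean over them, and red points are the medians of the list, for type I interferon genes, interferon-gamma and antigen presentation genes, and fibroblast and pericyte genes. Type I interferon genes peak on shCtrl-HFD (22 of 28 genes), interferon-gamma genes on shNrf3-NC (33 of 36), and fibroblast genes are lowest on shNrf3-HFD (14 of 19).

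Macrophage and monocyte markers were higher in part. Among 24 measured, 10 were higher by at least 1.5-fold and 2 lower. The median was 0.49. After Arg1 the largest were Ccr2, the receptor that draws monocytes into tissue (8.90, 10.36, 9.60 and 11.14), and the integrin gene Itgam (10.67, 12.57, 11.05 and 12.22). Ly6c2, a marker of inflammatory monocytes with a near-identical copy, was higher by 1.10, and the lysozyme gene Lyz2 by 1.03. The pan-macrophage genes Adgre1 (0.65) and Csf1r (0.43) had smaller differences, and C1qb (-0.65) and Apoe (-0.63) were the 2 lower. Of the other C1q genes C1qc was higher (0.64) and C1qa lay within 1.5-fold (0.13). Folr2 (0.94) and Mrc1 (0.65) were higher, and Trem2 lay near 0 (-0.08). Over all members 0 were lower after loess, after quantile normalization and with arrays centred on genes above the level rule. The summed log2 level of the list was 236 on shCtrl-HFD and 247 on shNrf3-HFD. Such sums, here and below, include readings under the control median. Neutrophil markers were mixed (4 higher and 4 lower of 19), with the granule gene Ngp lower (8.25 to 6.95) and Il1b higher (13.13 to 14.17). Itgam also belongs to the integrin list, with 3 higher and 2 lower of 20 in all. There the leukocyte integrin gene Itgb2 (0.95) was higher, and Itga3 (-1.08) and Itgb5 (-0.96) were lower.

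Cytotoxic lymphocyte genes were higher in 7 of 17 measured and lower in 0, with a median of 0.59, or 0.35 with low readings set to the control median. Granzyme B, Gzmb, read 6.69, 10.89, 7.69 and 9.36, granzyme A, Gzma, 8.30, 9.18, 7.46 and 8.88, and Gzmf 7.90, 10.34, 9.92 and 11.58. The Gzm genes are similar copies, and their probe sets are uncertain. Ncr1, a receptor of natural killer cells, was higher by 1.27 or more, as it read 4.63 on shCtrl-HFD. Gzmc (0.35) and Ccl5 (-0.0053) lay within 1.5-fold. Nkg7 (5.79 to 5.25) and Klrb1c (5.61 to 4.63) fell below the control median on shNrf3-HFD, with bounds within 1.5-fold. With no reading left out or set, 9 members were higher and 1, Klrb1c, lower. Of these 17 genes 5 were under the control median in both HFD samples. The summed log2 level, such low readings included, was 97.3 on shCtrl-HFD and 109 on shNrf3-HFD.

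T cell markers lay near the floor of the measurement. Of 17 measured, 8 were under the control median in both HFD samples, Cd3d and Cd3g among them, and Cd3e and Cd8a on shNrf3-HFD. The 3 higher were Cd247, of the CD3 zeta chain (0.64, measured on both), the costimulator gene Icos (0.84 or more) and the adaptor gene Lat (0.59 or more). The 1 lower was Cd4 (7.14 to 5.84). The summed log2 level of the list was 85.3 on shCtrl-HFD and 87.0 on shNrf3-HFD. Low readings are included there, and Lat alone went from 3.85, below the control median, to 5.95. For B and plasma cells 9 of 14 markers were under the control median in both, Cd79a, Ms4a1 and Pax5 included. The 2 lower genes were Ebf1 (-1.35), which fat precursors also express, and Fcer2a (-0.88), and Bank1 was higher (1.05). For mast cells and eosinophils 10 of 14 markers were under it in both and 0 were called. Dendritic cell markers were 1 higher (Batf3, 0.63 or more) and 2 lower of 16, the actin-bundling gene Fscn1 (-1.16) and Bst2 (-0.79). Bst2 is also a type I interferon gene and counts in both lists.

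Cytokine, chemokine and acute phase genes split. Among 38 measured genes 12 were higher by at least 1.5-fold and 8 were lower. Ccl2, which attracts monocytes, read 10.44, 11.63, 8.66 and 10.24, and Ccl6 13.30, 14.89, 12.09 and 13.61, each with shCtrl-HFD as the lowest array. Ccl12 (1.35), Ccl3 (1.26), Tslp (1.25), Cxcl5 (1.15) and the interleukin-1 antagonist gene Il1rn (1.10) were also higher. Lower were Cxcl1, which attracts neutrophils (11.18, 11.40, 11.003 and 8.98), and Cxcl13, which attracts B cells (9.01, 12.88, 8.69 and 6.74). Saa3 (-1.19), the stromal chemokine gene Cxcl12 (-1.06), Il6 (-0.97) and Il33 (-0.94) went with them. Members on both sides other than Ccl2, Ccl6, Cxcl1 and Cxcl13 were named after their values were seen.

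Complement and coagulation genes were also mixed, with 5 higher (19.2%) and 6 lower (23.1%) of 26. Of all genes above the level rule 9.12% were higher and 20.8% lower, so the share lower was near that of all genes. C6, a part of the membrane attack complex, read 5.51, 8.55, 5.66 and 8.27, high on both arrays labelled shNrf3. Serpinb2, an inhibitor of plasminogen activators, read 14.01, 13.73, 11.33 and 9.32, so that both HFD arrays were below both NC arrays and shNrf3-HFD was the lowest. Serping1, the C1 inhibitor gene, read 9.04, 10.62, 8.95 and 7.09, and C2 was lower by 1.18.

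Fibroblast and pericyte markers were lower. Of 19 measured genes 12 were lower by at least 1.5-fold, 11 of them by 2-fold or more, and 0 were higher, with a median of -1.17 that ran from -1.22 to -0.96 under the other scalings. The array labelled shNrf3-HFD was the lowest of the 4 for 14 of the 19, where it was lowest for 22.6% of all genes above the level rule. Dermatopontin, Dpt, read 11.04, 11.57, 11.10 and 8.74, and decorin, Dcn, a small proteoglycan that binds collagen, 15.01, 15.15, 13.95 and 11.80. Lumican, Lum, read 13.53, 11.57, 11.75 and 8.73. Dpt and Dcn had close values on the NC arrays and were lowest on shNrf3-HFD, while Lum was also lower on shNrf3-NC than on shCtrl-NC. The PDGF receptor gene Pdgfrb (-1.92) and Thy1 (-1.53) were lower, but the contractile genes Acta2 (0.45) and Tagln (0.25) and the protease gene Fap (0.09) lay within 1.5-fold. The summed log2 level of the list was 188 on shCtrl-HFD and 168 on shNrf3-HFD. Clec3b, Cspg4 and Notch3 were at background in both.

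Matrix genes, which fibroblasts express in quantity, were lower as well, and the part of fibroblast content in this was not tested. Among 22 collagen genes 11 were lower and 1 higher (median -0.56), and among 35 other matrix and remodelling genes 20 were lower and 3 higher (median -0.66). The collagen list shares 3 genes and the other list 3 genes with the fibroblast markers. Col3a1, a fibrillar collagen gene, read 17.56, 16.73, 16.91 and 14.99, and Col6a2, of the beaded collagen VI, 9.63, 8.24, 9.41 and 7.61. Col1a2 (-1.62) and Col6a3 (-1.19) were lower as well, while Col8a2, the exception, was higher by 1.02. Of the proteases Mmp2 read 11.19, 11.11, 10.89 and 8.80 and stood apart on shNrf3-HFD, and Mmp10 read 10.12, 8.24, 9.74 and 7.37. Mmp12 was the largest exception (15.25, 15.32, 13.32 and 15.06), and in that gene shCtrl-HFD stood apart, below the other 3 arrays. The plasminogen activator gene Plat (0.87) and fibronectin, Fn1 (0.80), were the other exceptions. In NC the median of the second list was 0.04.

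Endothelial markers included 5 lower and 0 higher of 19, with a median of -0.35, or -0.02 with low readings set to the control median. The VEGF receptor gene Flt1 read 9.70, 8.45, 9.96 and 8.09, VE-cadherin, Cdh5, 10.62, 8.65, 9.73 and 8.11, and the second VEGF receptor gene, Kdr, 8.50, 6.93, 8.47 and 6.90. Both arrays labelled shNrf3 were below both labelled shCtrl for each of these. Plvap, of fenestrated vessels, was lower by 0.96, whereas Pecam1 (-0.24) and Eng (0.13) lay within 1.5-fold. Prox1, Vwf, Robo4 and Sox17 were at background in both HFD samples. The summed log2 level of the list was 126 on shCtrl-HFD and 116 on shNrf3-HFD.

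**Figure D5:**
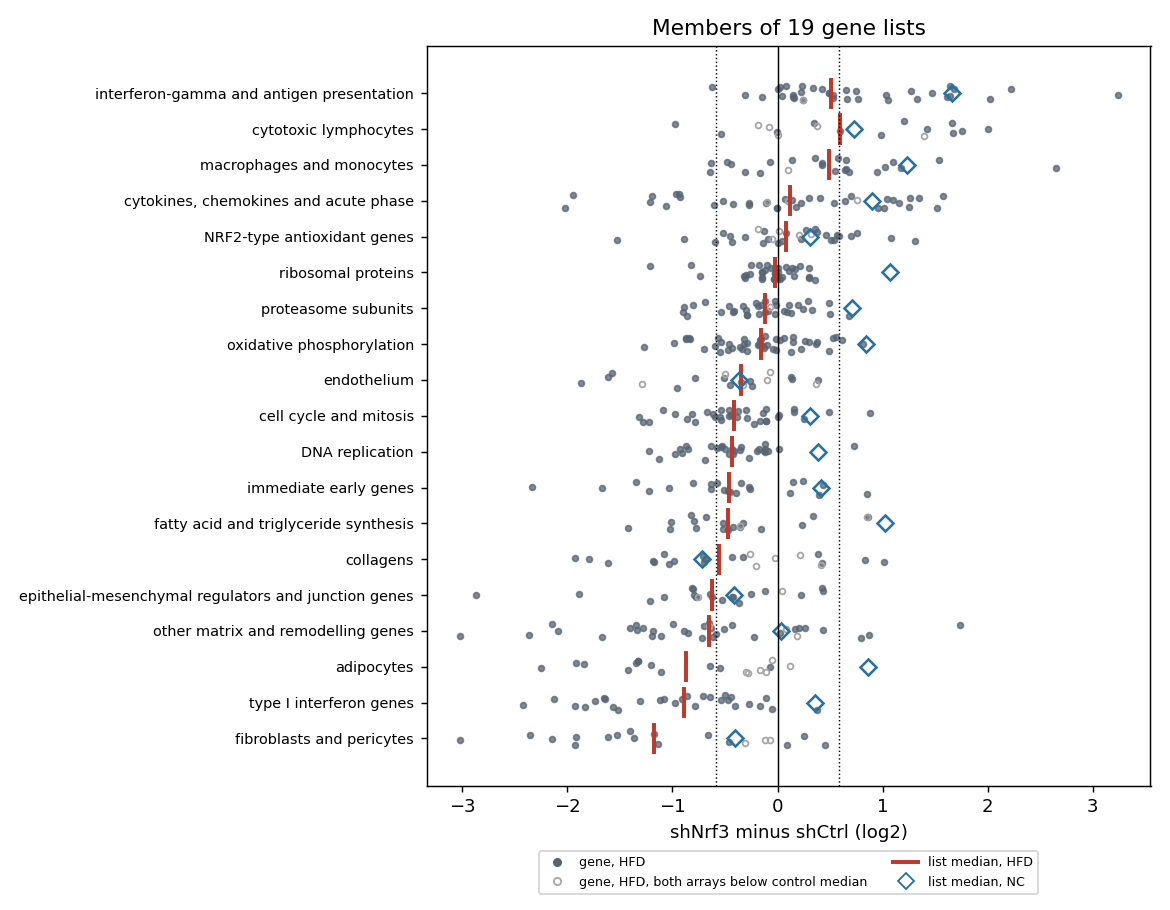
Difference between the arrays labelled shNrf3 and shCtrl (log2) in HFD for each measured gene of 19 lists (points; open where both arrays read below the control median), with the HFD median (red bar) and the NC median (blue diamond) of each list and dotted lines at 1.5-fold. Interferon-gamma and macrophage medians lie above 0 in both diets and the fibroblast median below 0 in both, while the type I interferon (-0.89 in HFD, 0.36 in NC) and adipocyte medians (-0.88 and 0.86) lie on opposite sides.

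Adipocyte markers were lower. Among 18 measured genes 9 were lower by at least 1.5-fold and 0 higher, with a median of -0.88, or -0.60 with low readings set to the control median. Car3, a carbonic anhydrase abundant in fat and muscle, read 13.35, 14.56, 13.78 and 11.53, and Cidec, a lipid droplet gene, 8.98, 11.27, 10.15 and 8.31. The adipokine gene Retn read 6.58, 11.81, 7.52 and 5.60. In each the array labelled shNrf3-NC was the highest and shNrf3-HFD the lowest. Leptin, Lep, and Plin4 were at background in both HFD samples, and the summed log2 level of the list was 141 on shCtrl-HFD and 125 on shNrf3-HFD. Dgat2 and Elovl6, named among the lipid genes below, were lower as well, and the part of fat cells in their difference was not tested.

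Skeletal muscle genes were near the floor in HFD. Of 31 measured, 17 were at background in both samples, 1 was higher and 4 lower. Fast troponin T, Tnnt3, read 9.89, 11.57, 9.90 and 8.15, Mylpf and Acta1 had bounds of -1.74 or lower and -1.09 or lower, while slow troponin T, Tnnt1, was higher (8.43 to 9.52). The summed log2 level was 169 on shCtrl-HFD and 160 on shNrf3-HFD. For liver cells 11 of 12 markers were at background in both, albumin, Alb, included. The major urinary protein genes, which encode pheromone carriers made chiefly by the liver and also by other glands, had the lowest differences of the comparison. Of 9 measured, 4 were lower and 0 higher. Mup22 read 16.36, 18.53, 13.68 and 7.75, and Mup2 14.09, 16.73, 11.80 and 5.95. The order of the 4 arrays was the same for Mup19 and Mup9. These genes are nearly identical, so the 4 probe sets cannot be taken as 4 separate measurements.

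Keratinocyte and skin markers were lower in part (8 lower and 1 higher of 20), with a median of -0.63, or -0.33 with low readings set to the control median. The epidermal keratin gene Krt10 read 6.45, 5.02, 9.50 and 4.72, and its partner Krt1 5.78, 5.05, 7.37 and 4.90. Krt77 (-2.25 or lower) and the desmosomal cadherin gene Dsg1a (-1.25 or lower) had the same order. For all 4 genes shCtrl-HFD was the highest array and shNrf3-HFD the lowest, below the control median. Among markers measured on both HFD arrays, Krt14 (-0.78) and Krt16 (-0.73) were lower. Perp (-0.28), Sfn (-0.54) and Krt17 (-0.15) lay within 1.5-fold, and Lgals7 was the higher one (9.11 to 9.71).

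Epithelial genes, which Renca cells share with tubule cells, were measured at high levels. Krt18 read 15.17, 14.46, 15.90 and 15.22, and E-cadherin, Cdh1, 13.97, 13.34, 14.64 and 13.85, so epithelial RNA was present on every array. The renal genes Pax2, Pax8, Cdh16, Umod and Lrp2 were at background in both HFD samples, where 13 of the list's 29 genes lay. Of the 29, 1 was higher and 7 lower, led by Krt7 (14.90, 14.93, 15.73 and 14.43), the epithelial factor gene Grhl2 (-1.15) and Krt19 (-0.96) on the lower side. Car9, a carbonic anhydrase of hypoxic and clear cell renal tumors, was higher (6.07, 8.82, 7.04 and 8.17). Junction genes and regulators of the epithelial-mesenchymal transition were 0 higher and 9 lower of 21, with a median of -0.62, or -0.44 with low readings set to the control median. Plakoglobin, Jup, read 13.77, 12.16, 14.09 and 13.01, and Dsc2 was lower by a bound of -2.74 or lower. The mesenchymal factor gene Zeb1 (-0.82) and the tight junction gene Marveld2 (-0.81) were both lower.

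Cell cycle and DNA replication genes were lower in 11 of 34 (32.4%) and 9 of 29 members (31.0%), against 1 higher in each. Of all genes above the level rule 20.8% were lower and 9.12% higher. The medians of the 2 lists were -0.41 and -0.43, and -0.20 and -0.22 with arrays centred on genes above the level rule. With that centring 7 and 7 were lower, after loess 8 and 7, and after quantile normalization 9 and 7. Each time 2 and 1 were higher. The mitotic kinase gene Plk1 read 11.51, 11.08, 11.92 and 10.60, Aurkb 9.65, 9.76, 10.43 and 9.15, and the proliferation marker Mki67 14.18, 13.49, 15.08 and 13.85. The helicase genes Mcm3 (-1.22) and Mcm5 (-0.98) and the polymerase gene Pola1 (-1.13) were also lower. For 19 of the 34 and 22 of the 29 genes the array labelled shCtrl-HFD was the highest of the 4. The exceptions were the cyclin gene Ccnd2 (0.88) and Uhrf1, which maintains DNA methylation (0.73).

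Histone genes, a family examined after the values were seen, were also highest on shCtrl-HFD in most members. Of 57 measured genes 25 were lower by at least 1.5-fold and 0 higher, with a median of -0.51. Among the 53 above the level rule differences ran from -1.34 to 0.24, and shCtrl-HFD was the highest array for 45. The copies are near-identical, so these are not 53 separate measurements.

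Immediate early genes, which respond to growth factors and stress within minutes, were 1 higher and 8 lower of 22 (median -0.46). Egr1 read 13.18, 12.98, 13.59 and 11.26, 5.05-fold lower, with shNrf3-HFD apart from 3 close arrays. Klf4 read 6.84, 7.14, 7.56 and 5.89, and the AP-1 genes Fosb and Junb differed by -1.34 and -1.22, while Egr3 was higher (6.28 to 7.13). Targets of p53 and apoptosis genes were 2 higher and 7 lower of 24. Btg2 (-1.12), Bcl2l1, of the survival protein BCL-XL (-1.05), and Casp8 (-0.93) were lower, and Fas (0.71) and Bcl2 (0.59) higher.

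Of 31 measured antioxidant genes of the kind CNC factors control, 4 were higher and 3 lower, and the median was 0.08. Over all members the counts were 8 and 2 after loess and after quantile normalization, and 10 and 2 with arrays centred on genes above the level rule (median 0.29). Heme oxygenase, Hmox1, read 13.46, 14.84, 12.84 and 14.14, and the quinone reductase gene Nqo1 5.86, 7.55, 6.50 and 7.58, both high on both arrays labelled shNrf3. The glutathione transferase genes Gstm2 (9.50, 9.10, 10.10 and 8.57) and Gstm1 (-0.89), similar copies whose probe sets are uncertain, were lower. The other lower gene was Srxn1 (7.07 to 6.47), measured on both arrays. The glutamate-cysteine ligase genes Gclc (0.46) and Gclm (0.08) and Txnrd1 (0.23) lay within 1.5-fold. Proteasome subunits, also known targets of CNC factors, were 1 higher and 5 lower (14.3%) of 35. Among all genes above the level rule 20.8% were lower. The list's median of -0.12 was 0.09 with arrays centred on those genes. Psmd7 (13.22 to 12.32), Psmd3 (12.92 to 12.03) and Psmc2 (13.88 to 13.02) led the lower and Psma7 (13.70 to 14.38) was the higher one. Genes of endocytosis and mTORC1 nutrient sensing were 0 higher and 4 lower (13.8%) of 29 as deposited, also under that 20.8%. These counts were 3 and 1 after loess, 2 and 1 after quantile normalization and 4 and 0 with that centring. The 4 lower as deposited were the lysosomal arginine sensor gene Slc38a9 (-0.74), Tsc2 (-0.61), Arf6 (-0.60) and Eea1 (-0.59).

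Lipid genes were counted by branch. Fatty acid and triglyceride synthesis genes were 1 higher and 6 lower of 19 (median -0.47), with Dgat2, of the last step of triglyceride synthesis (8.19, 8.71, 8.73 and 7.31), and the elongase gene Elovl6 (8.21, 9.34, 9.81 and 8.79) the lowest and Acacb the higher one (0.86). Cholesterol synthesis genes were 1 higher and 4 lower (21.1%) of 19, near the 20.8% lower among all genes above the level rule. Cyp51 (-1.12), Fdps (-1.02), Lss (-0.997) and Insig1 (-0.77) were lower and the sterol carrier gene Stard4 higher (0.76). In fatty acid oxidation 2 were higher and 5 lower (19.2%) of 26. The short-chain dehydrogenase gene Acads (-1.23) and Acaa2 (-1.08) were lower, while the medium-chain gene Acadm (1.08) and the carnitine transferase gene Cpt1a (0.84) were higher. Oxidative phosphorylation genes were 2 higher and 8 lower (17.0%) of 47, under that 20.8%. Their median of -0.16 was 0.05 with arrays centred on genes above the level rule. Uqcrc2 of complex III (-1.27) and Ndufs7 of complex I (-0.98) were lower and Ndufb8 (0.81) and Ndufa9 (0.62) of complex I higher. Ribosomal protein genes were 0 higher and 3 lower of 38, with a median of -0.02 that was 0.19 under that centring. In NC the medians of these last lists were 0.84 and 1.07.

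Hypoxia and glycolysis genes were 2 higher and 8 lower of 29, with the oxygen sensor gene Egln3 (-1.10), Bnip3 (12.11 to 11.11) and Ndrg1 (16.03 to 15.13) lower and Car9 higher by 1.14. Over all members these counts were 4 and 4 with arrays centred on genes above the level rule. ATF4 and amino acid response genes were 0 higher and 5 lower (20.8%) of 24, where 20.8% of all genes above the level rule were lower. The lowest were Aldh18a1 of proline synthesis (-1.01), the amino acid transporter gene Slc7a5 (-0.93) and the one-carbon gene Mthfd2 (-0.92). Slc7a5 was nevertheless higher on both HFD arrays (12.01 and 11.08) than on both NC arrays (10.13 and 9.97). Of 23 unfolded protein and heat shock genes 5 were lower (21.7%, near that 20.8%) and 1 higher. Herpud1, of protein degradation at the endoplasmic reticulum (11.06, 11.63, 11.82 and 10.15), was lowest and the chaperone gene Hsp90b1 (0.72) higher.

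Growth factor and morphogen genes were lower in several members that stroma expresses. Of 26 Wnt genes 10 were lower and 0 higher (median -0.41), with the secreted antagonist gene Sfrp2 at 10.76, 10.80, 9.87 and 7.68 and Ccn4 at 7.67, 6.65, 7.86 and 5.74. The ligand gene Wnt7b went from 10.54 to 8.95. Of 30 receptor tyrosine kinase genes and ligands 8 were lower and 3 higher (median -0.35). Igf1 read 8.78, 10.58, 9.15 and 7.58, the ephrin gene Efnb2 11.78, 11.99, 12.42 and 10.88, and Igfbp7 15.80, 15.38, 15.26 and 13.69. The ligand genes Fgf1 (0.98 or more), Nrg1 (0.80) and Fgf2 (0.75) were higher. In the TGF-beta, BMP and activin list 8 were lower and 2 higher of 26, with the BMP antagonist gene Grem1 (-1.55), Ltbp2 (-1.11) and the inhibitor gene Id1 (-0.97) lower and the co-receptor gene Tgfbr3 (1.04) and Id2 (0.85) higher, but over all members 6 were higher and 5 lower with arrays centred on genes above the level rule. Fibroblast markers moved in the same direction as these secreted factors, and their part in the difference was not tested. With no reading left out or set, 42.3% of the Wnt, 33.3% of the receptor tyrosine kinase and 34.6% of the TGF-beta list were lower. The shares higher were 7.69%, 13.3% and 11.5%. Of all genes above the level rule 20.8% were lower and 9.12% higher.

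Retinoid genes other than Crabp1 were lower in part (6 lower and 0 higher of 18, Crabp1 counted). The retinol dehydrogenase gene Rdh10 read 9.99, 9.60, 10.69 and 8.78, the receptor gene Rara 10.49, 10.77, 11.31 and 10.07, and the retinol uptake gene Stra6 differed by -0.91. Of the enzymes that make retinoic acid, Aldh1a1, Aldh1a2 and Aldh1a3 were at background in both HFD samples. Imprinted genes were 2 higher and 2 lower of 23, and 11 were at background in both. Ipw read 4.94, 3.92, 4.85 and 9.23, Impact 10.44, 10.65, 10.08 and 11.44, and Mest 9.77, 7.74, 9.30 and 7.95. Ipw and Impact were thus highest on shNrf3-HFD, and Mest was low on both arrays labelled shNrf3.

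In part of the genes past 2-fold, 1 of the HFD arrays stood 2-fold from all the others. Of the 256 higher genes shNrf3-HFD stood so far above the other 3 arrays for 22, among them the transferrin receptor gene Tfrc (10.10, 9.93, 10.54 and 11.55), and shCtrl-HFD stood below them for 33, among them the placental growth factor gene Pgf (8.70, 8.86, 7.41 and 8.58). Of the 714 lower genes shNrf3-HFD stood below the others for 117 and shCtrl-HFD above them for 113. Tfrc and Pgf were chosen after their values were seen. In the NC pair, 105 of the 256 (41.0%) and 407 of the 714 (57.0%) differed by less than 1.5-fold, as did 59.7% of all 10021 genes. Of the 256, 84 (32.8%) were 2-fold or more higher in NC too, against 13.3% of all, and of the 714, 83 (11.6%) were 2-fold or more lower there, against 4.52%. The HFD and NC comparisons have no array in common.

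Genes next to one another in chromosome order, among those above the level rule, moved together in places. Of these genes 10019 were placed in RefSeq order. In that order 139 runs of 3 or more adjacent genes differed by at least 1.5-fold in the same direction, 121 lower and 18 higher. Genes left out by the level rule can lie between the members of a run. Among the higher were 4 genes with H2-Ab1, H2-Aa and H2-Eb1, 4 with the Fc receptor genes Fcgr2b, Fcgr4 and Fcgr3, and the chemokine genes Ccl6, Ccl3 and Ccl4. Among the lower were Ifit3, Ifit3b and Ifit1, the genes Oas1b, Oas1g and Oas1a, and the keratin genes Krt80, Krt7, Krt1 and Krt77. These are clusters of duplicated genes with similar sequences, and a longest run of 7 held unrelated genes (Fbxl19 to Bckdk). Of all genes above the level rule 20.8% were lower by 1.5-fold or more and 9.12% higher. How many runs would arise by chance from these shares was not tested.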

How the data were processed

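RNA of 4 groups of tumors was hybridized to 1 Affymetrix array each. The authors' log2 values came from Affymetrix Expression Console with RMA, per the submitters' processing notes, with no version given. Of 28846 rows 22206 are transcript rows and 6640 control rows. The platform annotation names 19572 probe sets with 1 symbol and 0 with several, and all 19572 Entrez IDs matched RefSeq genes of assembly GRCm38.p6, used for symbols and gene order only. For 55 of 19505 genes with several probe sets the highest mean was kept.

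The array labelled shCtrl-HFD was subtracted from shNrf3-HFD for genes with a mean of 5.73 or more. A reading below the array's negative control median was set to it and made the difference a bound; "at background" means below it. Whether members were higher or lower by 1.5-fold was counted for 45 lists (1081 of 1191 entries measured). An array gives no depth of counts, and with 1 array a group its number limits the precision. The counting was tested on simulated data with less scatter than these arrays and planted differences well past 2-fold. That checked the code only and says nothing of how reliable the counts are.

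Named genes were Nfe2l3, the 15 highest and lowest, the 8 largest each way above the 95th percentile of the control rows, 5 bounds each way, and the 4 largest members of each list with exceptions; other genes were named after their values were seen. Predicted genes, clone names and olfactory, vomeronasal and immune receptor genes were counted but not named. Members, lists and rules were chosen with earlier results of these data known. Alternatives were 7 chosen at the start and 1 added after the data were seen, run with Python 3.11.15, pandas 2.3.3, numpy 2.4.6, and limma 3.58.1 in R 4.3.3. Promoter motifs were not analysed here, as no sequence table was used.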

Additional observations from a re-analysis of the deposited data

Results flagged for a closer look

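Of the 714 genes 2-fold or more lower in HFD, 81 (11.3%) were 2-fold or more higher in NC on the array labelled shNrf3, against 13.3% of all 10021 genes. This opposite order was thus no more common among the lower genes than over all genes. Those of the 81 chosen by the rule for named genes and measured on all 4 arrays follow. Adipoq (-1.33 in HFD and 3.35 in NC), Fabp4 (-1.33 and 1.55) and Pnpla2 (-1.11 and 1.20) also moved this way and were picked out after their values were seen. With 1 array a group the difference between diets was not tested. The Mup genes, nearly identical copies, had HFD and NC differences of -5.93 and 2.17 (Mup22), -5.85 and 2.64 (Mup2), -5.61 and 2.12 (Mup19) and -5.36 and 1.496 (Mup9). Genes of fat tissue and lipid synthesis were Retn (-1.92 and 5.23), Cidec (-1.84 and 2.29), Car3 (-2.25 and 1.21), Elovl6 (-1.02 and 1.13), Cyp51 (-1.12 and 1.08) and the fatty acid oxidation gene Acads (-1.23 and 1.09). The adipocyte list as a whole had a median of -0.88 in HFD and 0.86 in NC. Secreted proteins were the chemokine Cxcl13 (-1.94 and 3.87), the growth factor Igf1 (-1.57 and 1.80), the C1 inhibitor Serping1 (-1.86 and 1.58) and the peroxidase Gpx3 (-2.59 and 1.31). The other named genes were the troponin gene Tnnt3 (-1.75 and 1.68), the AP-1 gene Fosb (-1.34 and 1.15), the helicase gene Mcm3 (-1.22 and 1.06) and Aldh18a1 of proline synthesis (-1.01 and 1.21).

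Of 2634 transcript rows that are unnamed here, 466 exceeded the control rows' 95th percentile in both HFD samples. Of these 30 were 2-fold or more higher and 26 lower.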

How the results depend on the processing

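No paired analysis was possible because each group has 1 array, and for the same reason no array could be left out. Counts of genes 2-fold or more higher and lower were 256 and 714 as deposited. They were 1009 and 1021 with no filter on level, 95 and 336 with the filter at the 75th percentile, and 481 and 383 with each array centred on its median over the genes past the filter, which was added after the data were seen. Loess gave 316 and 517, quantile normalization 304 and 530, centring over transcript rows 226 and 799, the mean of probe sets 255 and 713, and setting low readings to the control median 230 and 696. Counted from the median difference of -0.14, the numbers were 386 and 469. All 208 named genes kept their sign under the 4 scalings. Of 45 list medians 24 did so (7 above 0 and 17 below), and the other 21, each at most 0.21 in size as deposited, did not. Counted over all members, the larger side of the 1.5-fold counts, higher or lower, turned or was lost under at least 1 scaling in 15 of the 45 lists. Signal over background limits the low genes: 44 of the 256 and 59 of the 714 had 1 HFD reading below the control median.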
